A study of Solanum lycopersicum with 12 samples.

Results

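The ethylene response factors examined here were the 8 tomato genes ERF2, ERF3, ERF4, PTI4, JERF1, JERF3, EREB and ERF-H1. They were chosen by gene symbol in the array's probe-to-gene table, which names 802 genes in all. They had 9 probe sets, 2 for ERF3 and 1 for each of the others, of 10038 tested. A probe set is a group of short probes that together report 1 transcript. The samples were roots and leaves of tomato (Solanum lycopersicum), each with or without cadmium (Cd), on 12 single-channel Affymetrix arrays with 3 arrays in each of 4 groups, namely control roots (root control), roots given Cd (root Cd), control leaves (leaf control) and leaves titled as given Cd (leaf Cd). Groups were taken from the sample titles. For the 3 leaf Cd arrays the source name contradicts the title and states no Cd, a conflict that touches every leaf comparison. The labels used here give no cultivar, plant age, dose, exposure time or growth medium, nor whether replicate arrays came from separate plants. P-values here rest on the spread among replicate arrays, and that spread may be technical.

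Ethylene response factors are transcription factors that carry an AP2/ERF DNA-binding domain. In the ethylene pathway, receptors and the CTR1 kinase hold back EIN2, and when ethylene binds, EIN2 and EIN3-type factors switch on ERF genes. Many ERF proteins bind the GCC box, a promoter element found in pathogenesis-related genes, and some also bind the dehydration-responsive element of stress genes. Members can activate or repress transcription, so a rise of one and a fall of another need not act in the same direction on shared targets.

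The current tomato gene table gave all 9 probe sets a gene. ERF4 and PTI4 were near neighbours on chromosome 5 in that table, with 1 gene between them, DDTFR10A (synonym SlERF-B1), itself named as an ERF. No probe set carried the name of that gene.

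Values are log2 expression, so a difference of 1 is a 2-fold change. The median array value was 7.46 to 7.50 for roots and 6.85 to 6.89 for leaves, and root controls were tested against leaf controls after each array's median was taken off. Levels are as deposited unless stated otherwise, also where root and leaf levels are set side by side. Each array's background, 2.69 to 3.57, was the brightest of its 23 negative controls. Of 8 green-tissue marker genes, all 8 were above background on all root arrays too. Their summed level was 15.12 to 15.24 in leaf controls, 14.81 to 15.05 in leaf Cd, 14.10 to 15.02 in root controls and 13.43 to 13.99 in root Cd. ST1, FER, NRAMP1 and ext1 of 5 root markers were at background on all leaf control arrays, while FRO1 was higher in leaf controls than in root controls. Those 4 of the 5 rose from root control to root Cd (adjusted p between 0.0120 and 0.0300 by limma), beside 3.03% of all probe sets called. The summed level of the 5 root markers was 11.53 to 11.93 in root controls and 12.50 to 12.83 in root Cd. The part of these shifts in the results below was not tested.

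Of the 9 probe sets, 7 were above background on all 12 arrays, and these reported ERF2, ERF3, ERF4, PTI4, JERF1, JERF3 and ERF-H1. The probe set of EREB was above background on all 3 arrays of each control group, on 1 of 3 root Cd arrays and on 2 of 3 leaf Cd arrays. The other ERF3 probe set (between 2.12 and 2.57) was below background on all 12 arrays and gave no level for any group. ERF3 below refers to the brighter one, of the kind that can match several transcripts of 1 gene.

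**Figure D1:**
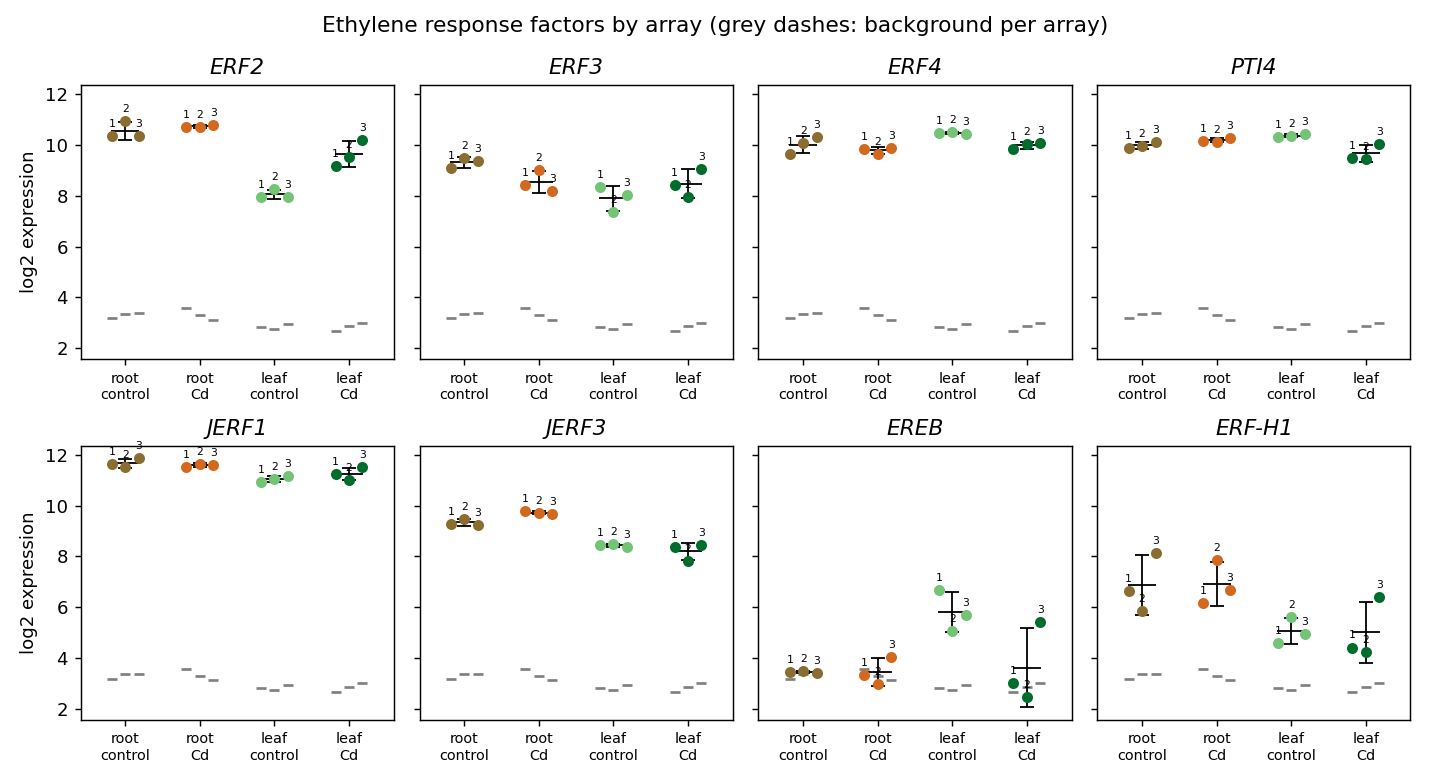
Log2 expression of the 8 ethylene response factors on each of the 12 arrays (points, numbered by array), with the group mean and SD (black, n = 3) and each array's background (grey dashes). ERF2 sat lowest in the leaf controls, EREB was clearly above background in leaf controls and near it in roots, and array 3 of leaf Cd was the highest of its group in every panel.

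The first question was which of these factors differed between control leaves and leaves titled as Cd-treated. In leaf, ERF2 rose and PTI4 fell, and the other 6 genes did not pass the test. Over all probe sets 3.78% were called in this comparison by limma at an adjusted p below 0.05, against 2 of the 9 probe sets of these factors. At an unadjusted p below 0.05 there were 4 of the 9, beside 19.2% of all probe sets. The median difference of the 9 was -0.05, and that of all probe sets was 0.02.

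ERF2, known in tomato as an activator of ethylene synthesis genes, read 7.93, 8.26 and 7.96 in leaf controls and 9.18, 9.53 and 10.18 in leaf Cd. All 3 Cd arrays lay above all 3 controls, with the lowest Cd array almost 1 log2 unit above the highest control. The mean rose from 8.05 ± 0.18 to 9.63 ± 0.51 (SD, n = 3), which is 2.99-fold (log2 difference 1.58, SE 0.24, adjusted p = 0.00682 by limma). With the 6 leaf arrays fitted alone the size was the same and the adjusted p was 0.0686.

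PTI4, which is phosphorylated by the resistance kinase Pto and binds the GCC box, read 10.32, 10.33 and 10.42 in leaf controls. In leaf Cd it read 9.48, 9.46 and 10.04. The groups did not overlap, but Cd array 3 lay closer to the controls than to the other Cd arrays. The mean fell from 10.36 ± 0.06 to 9.66 ± 0.33, or 1.62-fold lower (log2 difference -0.70, SE 0.16, adjusted p = 0.0348 by limma). This call was lost in 9 of 19 alternative settings, with adjusted p up to 0.181. Among them were the omission of each leaf array other than Cd array 3 (adjusted p between 0.0696 and 0.115) and of root control arrays 1 and 2 and root Cd array 1, which share the estimate of spread (adjusted p between 0.0560 and 0.0600). Without Cd array 3 the difference was -0.89 (adjusted p = 0.00264).

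ERF4, the chromosome 5 neighbour of PTI4 and an activator of ethylene-responsive transcription, read 10.47, 10.51 and 10.42 in leaf controls and 9.83, 10.03 and 10.07 in leaf Cd. As with PTI4, every Cd array lay below every control. The difference of -0.49 (95% interval -0.85 to -0.13) did not pass (adjusted p = 0.134). Groups did not overlap for 3 of the 9 probe sets in leaf (ERF2, PTI4 and ERF4), beside 21.7% of all probe sets.

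EREB, listed under the synonym TSRF1, a factor that binds the GCC box of pathogenesis-related genes, had the widest spread in leaf Cd. It read 6.68, 5.08 and 5.69 in leaf controls and 3.02, 2.47 and 5.41 in leaf Cd. Cd arrays 1 and 2 were near or below background, and array 3 lay within the control range. The means were 5.82 ± 0.80 and 3.63 ± 1.56, and the difference of -2.19 (95% interval -3.62 to -0.75) did not pass (adjusted p = 0.0955). Without Cd array 3 it was -3.07 (adjusted p = 0.00454), and with array weights it was -2.65 (adjusted p = 0.0133).

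The remaining genes did not pass in leaf. ERF3, a repressor with an EAR motif, read 8.34, 7.37 and 8.02 in leaf controls and 8.41, 7.95 and 9.06 in leaf Cd, and the groups overlapped (difference 0.56, 95% interval -0.15 to 1.27, adjusted p = 0.382). JERF1 and JERF3, jasmonate- and ethylene-responsive factors that raise salt tolerance in transgenic tobacco, stayed within 0.24 log2 units of their controls on average. JERF1 differed by 0.21 (95% interval -0.11 to 0.54) and JERF3 by -0.23 (95% interval -0.59 to 0.12). ERF-H1 read 4.61, 5.64 and 4.97 in leaf controls and 4.42, 4.23 and 6.41 in leaf Cd, where Cd array 3 was above every control and the other Cd arrays below. Its difference of -0.05 had an interval from -1.59 to 1.48, wide enough to hold a 2-fold change in either direction.

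Leaf Cd array 3 was the highest of the 3 leaf Cd arrays for 9 of the 9 probe sets, the ERF3 probe set below background included, beside 41.0% of all probe sets. Limma gave this array a weight of 0.155, while the other 5 leaf arrays had 0.668 to 1.60. Leaving it out changed the leaf calls among these factors from 2 to 3, adding EREB, and moved the number of all probe sets called from 379 to 589. The ERF2 difference without it was 1.30 (adjusted p = 0.00692). ERF3 then differed by 0.27 (adjusted p = 0.671) in place of 0.56, ERF4 by -0.54 (adjusted p = 0.116), JERF1 by 0.08 and JERF3 by -0.35. ERF-H1 moved from -0.05 to -0.75 (adjusted p = 0.557), and none of these 5 genes passed.

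**Figure D2:**
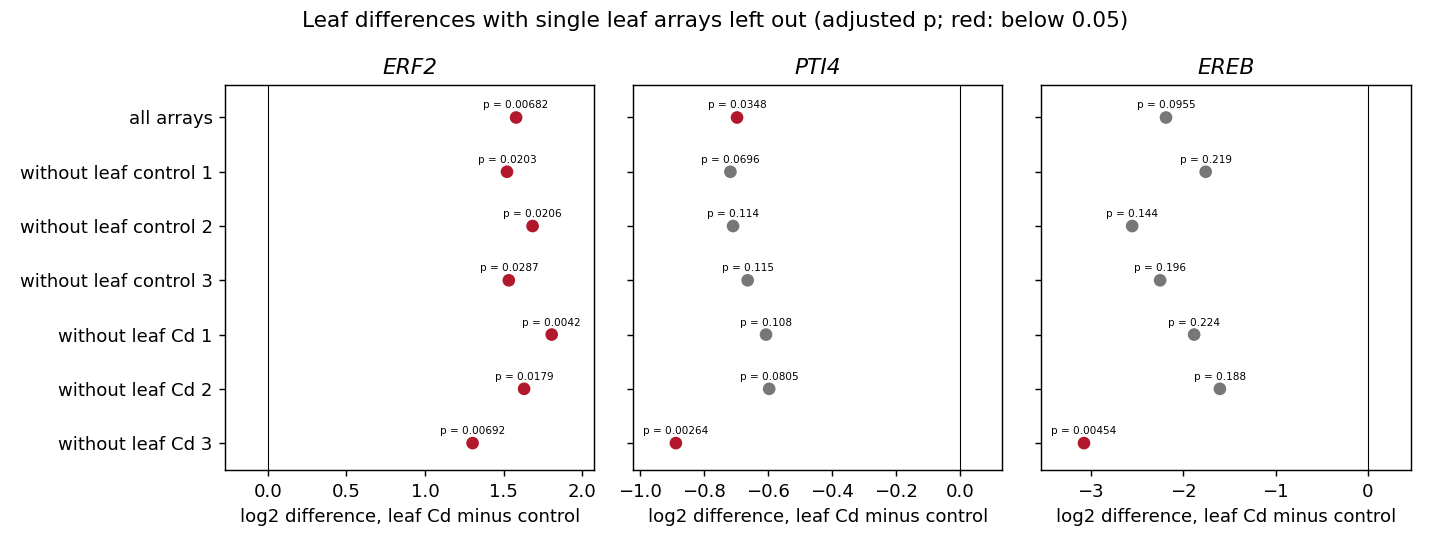
Log2 difference between leaf Cd and leaf control for ERF2, PTI4 and EREB with all arrays and with each leaf array left out (rows), each labelled with its adjusted p, red where below 0.05. ERF2 stayed between 1.30 and 1.81 and kept its call, PTI4 was called with all arrays and, of these 6 omissions, only without leaf Cd array 3, and EREB was called only without that array.

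In roots, none of the 8 genes passed the test. Over all probe sets 3.03% were called in root, and 0 of the 9 probe sets of these factors were called by limma, with 2 at an unadjusted p below 0.05 (ERF3 and JERF3), beside 17.4% of all probe sets at that level. The median difference of the 9 probe sets was 0.01, and that of all probe sets was 0.02. Groups did not overlap for 4 of the 9 (ERF3 with both probe sets, JERF3 and PTI4), beside 27.4% of all probe sets.

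ERF3 read 9.08, 9.50 and 9.38 in root controls and 8.41, 9.00 and 8.19 in root Cd. The highest Cd array lay just below the lowest control. The means were 9.32 ± 0.22 and 8.53 ± 0.42, a difference of -0.78 (95% interval -1.50 to -0.07, adjusted p = 0.233). JERF3 read 9.28, 9.49 and 9.24 in root controls and 9.78, 9.72 and 9.67 in root Cd, where every Cd array was higher. Its difference was 0.39 (95% interval 0.03 to 0.74, adjusted p = 0.238).

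PTI4 read 9.88, 9.94 and 10.12 in root controls and 10.13, 10.13 and 10.27 in root Cd. The groups were barely apart, with a difference of 0.20 (95% interval -0.15 to 0.55, adjusted p = 0.627). With array weights (8.12 for root control array 1 and 5.60 for root Cd array 1, at most 1.34 for the other root arrays), 3745 of all probe sets were called, and ERF3 (-0.70, adjusted p = 0.00886), JERF3 (0.46, adjusted p = 0.00154) and PTI4 (0.24, adjusted p = 0.0134) passed.

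ERF2, the gene that rose in leaf, read 10.36, 10.95 and 10.34 in root controls and 10.69, 10.70 and 10.78 in root Cd. The Cd arrays fell inside the control range, and the difference of 0.17 had a 95% interval of -0.36 to 0.71. ERF4 differed by -0.22 (95% interval -0.58 to 0.15) and JERF1 by -0.09 (95% interval -0.41 to 0.24). EREB differed by 0.01 and ERF-H1 by 0.03, with intervals reaching 1.4 or more to either side. ERF-H1 read 6.62, 5.86 and 8.15 in root controls and 6.17, 7.88 and 6.68 in root Cd, the widest spread among the root controls of these genes.

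**Figure D3:**
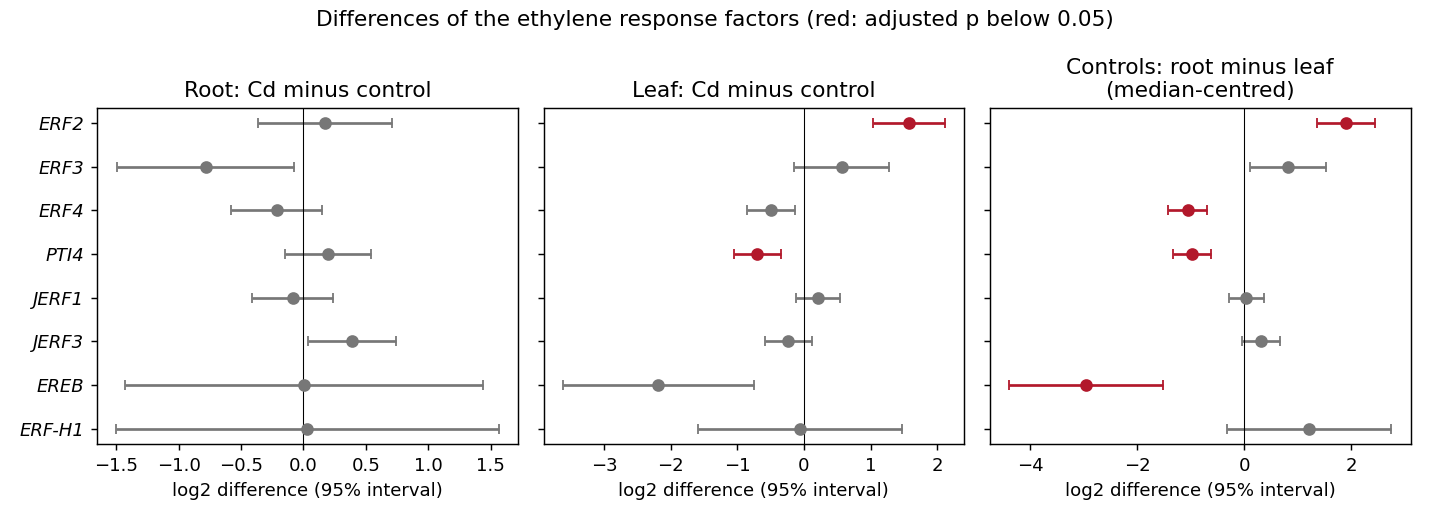
Log2 differences of the 8 genes with 95% intervals for Cd in root, Cd in leaf, and root against leaf controls (median-centred), red where the adjusted p was below 0.05. ERF2 and PTI4 are red in leaf, no gene is red in root, and ERF2, ERF4, PTI4 and EREB are red between organs.

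The third question was whether the responses of the organs differed from each other. Over all probe sets 0.757% were called for this difference, and 0 of the 9 probe sets of these factors were called by limma, with 5 at an unadjusted p below 0.05, beside 15.3% of all probe sets at that level. The root response of ERF2 less its leaf response was -1.41 (95% interval -2.17 to -0.65, adjusted p = 0.0853). For PTI4 it was 0.89 (95% interval 0.40 to 1.39, adjusted p = 0.0902). Thus, although both genes were called in leaf and not in root, the difference between the organs' responses did not pass for either gene. ERF3 (-1.35, adjusted p = 0.204), JERF3 (0.62, adjusted p = 0.232) and EREB (2.19, adjusted p = 0.290) were the other 3. Without leaf Cd array 3, PTI4 (1.09, adjusted p = 0.0135) and EREB (3.08, adjusted p = 0.0351) passed, and without leaf Cd array 1 ERF2 did (-1.63, adjusted p = 0.0482).

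Without Cd, 4 of the 8 genes differed between organs by the median-centred test. ERF2 was higher in root, and ERF4, PTI4 and EREB were higher in leaf. Over all probe sets 43.3% were called in this comparison, against 5 of the 9 probe sets here, the fifth being the ERF3 probe set that was below background throughout, for which no fold is given. Groups did not overlap for 7 of the 9, that ERF3 probe set included, beside 62.8% of all probe sets, so a call between organs was common on this array. In bulk organs, a change in the cells present and a change in transcript per cell cannot be told apart.

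ERF2 was 3.76-fold higher in root controls than in leaf controls (log2 difference 1.91, SE 0.25, adjusted p = 0.000143), and 2.50 log2 units higher on the values as deposited. ERF4 was 2.08-fold lower in root (log2 difference -1.06, adjusted p = 0.000469) and PTI4 1.96-fold lower (log2 difference -0.97, adjusted p = 0.000707). As deposited these neighbours on chromosome 5 differed by -0.46 (adjusted p = 0.0257) and -0.38 (adjusted p = 0.0497), so their direction held and the log2 size was smaller. EREB read 3.46, 3.48 and 3.41 in root controls, just above background, and was 7.76-fold lower there than in leaf controls (log2 difference -2.96, adjusted p = 0.00402). As deposited the difference was -2.37.

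ERF3 was 0.82 higher in root (95% interval 0.11 to 1.53) without passing (adjusted p = 0.0608). It passed without leaf control array 1 (1.03, adjusted p = 0.0416), and without leaf Cd array 2 (adjusted p = 0.0455) or array 3 (adjusted p = 0.0326). Under a replicate block, which ties arrays of equal number in an organ, it passed as well (adjusted p = 0.0250), and as deposited it differed by 1.41 (adjusted p = 0.00270). With array weights ERF3 passed too (0.80, adjusted p = 0.00787). JERF1 differed by 0.04 (95% interval -0.29 to 0.37), JERF3 by 0.31 (95% interval -0.05 to 0.67, and adjusted p = 0.0464 without leaf Cd array 2) and ERF-H1 by 1.22 (95% interval -0.32 to 2.75). As deposited these 3 genes passed too, by 0.63, 0.90 and 1.81. Among the settings tried, JERF1 and ERF-H1 passed only without the median centring. JERF3 also passed with the centring kept under array weights (0.30, adjusted p = 0.0256).

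Across all 4 groups, median-centred levels placed ERF2 in the order root Cd (3.24 ± 0.03), root control (3.07 ± 0.33), leaf Cd (2.76 ± 0.53) and leaf control (1.16 ± 0.19). The first 3 overlapped as neighbours, and only the leaf controls stood clear. Leaf Cd reached the root control range through array 3 alone, as leaf Cd arrays 1 and 2 lay below every root array. For ERF4 the order was leaf control (3.58 ± 0.05), leaf Cd (3.11 ± 0.15), root control (2.52 ± 0.32) and root Cd (2.30 ± 0.13), and the 2 root groups overlapped. For PTI4 it was leaf control (3.47 ± 0.05), leaf Cd (2.80 ± 0.34), root Cd (2.69 ± 0.06) and root control (2.50 ± 0.12), where leaf Cd and root Cd overlapped. Leaf Cd arrays 1 and 2 lay below every root Cd array for PTI4, and leaf Cd array 3 lay above them all.

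For JERF3 the order was root Cd (2.24 ± 0.07), root control (1.86 ± 0.13), leaf control (1.55 ± 0.07) and leaf Cd (1.34 ± 0.34), with only the leaf groups overlapping. Every neighbouring pair overlapped for ERF3, JERF1, EREB and ERF-H1. Leaf Cd array 3 alone made leaf Cd overlap root control for ERF3, and overlap leaf control for EREB and ERF-H1. JERF1 had the narrowest range of group means, from 4.10 to 4.39.

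The factors did not move as 1 group. After each organ's mean was taken off, Pearson's r over the 12 arrays ranged from -0.59 (ERF2 with PTI4) to 0.88 (PTI4 with EREB) among the 28 pairs. ERF4 and PTI4, the chromosome 5 neighbours, had r = 0.66. JERF1 and ERF-H1 had r = 0.72. These values describe 12 arrays that share the leaf Cd arrays and the Cd contrast, and carry no test.

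The genes whose pattern was most like that of each factor called with Cd were found the same way among 801 other genes with a symbol. For ERF2 they were ACO5, an ACC oxidase of ethylene synthesis (r = 0.93), DREB3, another AP2/ERF factor (r = 0.89), and ADH2, an alcohol dehydrogenase of fermentation (r = 0.89). ACO5 was at background on all 3 leaf controls (2.61 ± 0.06) and read 8.49 ± 0.64 in leaf Cd, 11.76 ± 0.49 in root controls and 11.97 ± 0.58 in root Cd. ADH2 read 4.59 ± 1.06, 7.08 ± 0.44, 11.80 ± 0.28 and 11.83 ± 0.04 in these groups. Both were lowest in leaf controls, as ERF2 was. Their rise from leaf control to leaf Cd follows from the choice by likeness to ERF2. Root levels relative to leaf levels did not enter the choice, as each organ's mean was taken off. All these levels are a description with no test.

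For PTI4 the nearest genes were the ethylene receptor ETR5 (r = 0.92), IAA17, an auxin-response repressor (r = 0.90), and EREB (r = 0.88). ETR5 read 6.57 ± 0.11 in leaf controls and 5.88 ± 0.34 in leaf Cd, and IAA17 read 7.00 ± 0.46 and 5.66 ± 0.60. As with ERF2, lower leaf Cd levels follow from the choice by likeness.

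**Figure D4:**
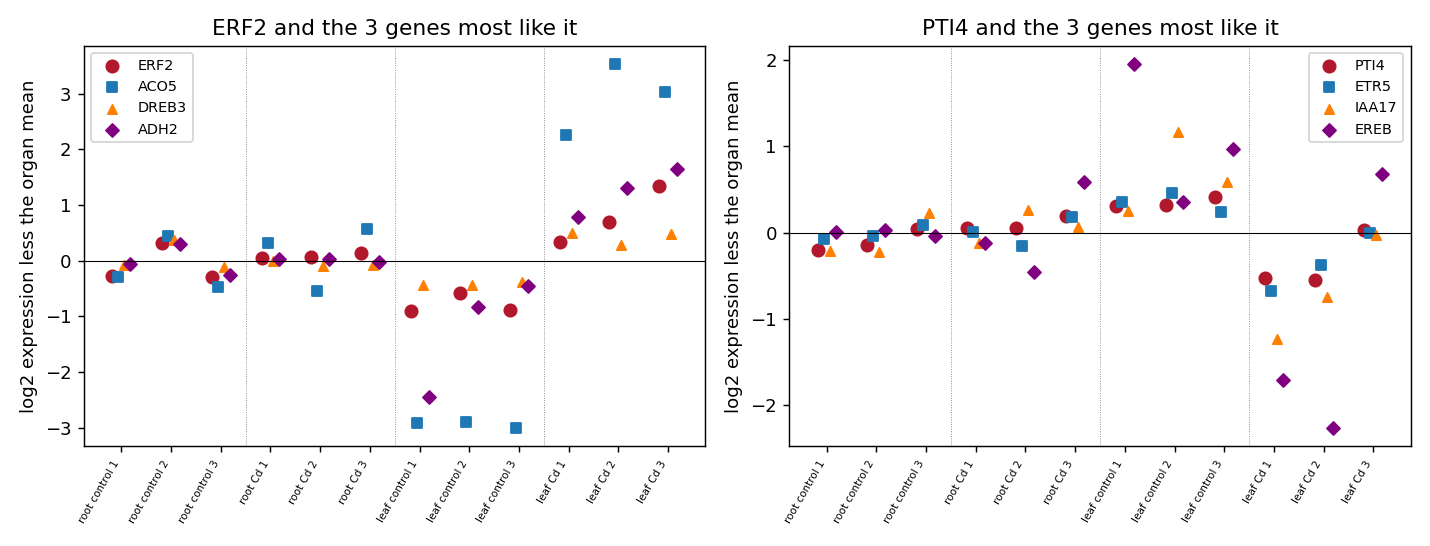
Log2 expression less the organ's mean on each of the 12 arrays for ERF2 and the 3 genes most like it (left) and for PTI4 and the 3 most like it (right). The genes on the left are low in leaf controls and high in leaf Cd, and those on the right are high in leaf controls and lowest in leaf Cd arrays 1 and 2.

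Around these factors in the pathway, 11 ethylene synthesis genes were measured. In root 1 fell and 0 rose, and in leaf 1 rose and 0 fell by limma. Over all probe sets 3.03% were called in root and 3.78% in leaf. At an unadjusted p below 0.05 there were 2 of the 11 in root and 1 in leaf, beside 17.4% and 19.2% of all probe sets. The ACC oxidase ACO6 fell in root, with 8.29, 8.45 and 8.83 in controls and 7.12, 6.67 and 7.02 with Cd (adjusted p = 0.000868). ACO5 was the gene that rose in leaf (adjusted p = 2.99e-05). For these 2 genes the organs' responses differed as well (root less leaf -1.64, adjusted p = 0.0133 for ACO6, and adjusted p = 0.00124 for ACO5). The ACC synthases ACS6 (-0.69 in root) and ACS2 (0.58 in root) did not pass. Over the list the median was -0.15 in root and 0.07 in leaf.

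Of 15 receptors and signalling genes, 0 were called in root by limma, and ETR5 alone was called in leaf, where it fell (adjusted p = 0.0458). At an unadjusted p below 0.05 there were 4 of the 15 in root and 5 in leaf, beside 17.4% and 19.2% of all probe sets. ETR4 differed by 0.87 in root (adjusted p = 0.187) and by -1.12 in leaf (adjusted p = 0.0864), opposite in sign and past the threshold in neither. CTR1 (0.46 in root) and EIL1, an EIN3-type factor (-0.42 in leaf), did not pass. The median was 0.12 in root and -0.01 in leaf.

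Among 7 other AP2/ERF factors, 0 were called in root by limma. At an unadjusted p below 0.05 there were 4 of the 7 in root and 1 in leaf, beside 17.4% and 19.2% of all probe sets. DREB3 alone was called in leaf, where it rose. It read 7.18, 7.19 and 7.22 in leaf controls and 8.11, 7.91 and 8.10 with Cd (adjusted p = 0.00899). PTI5, a further Pto-interacting factor, read 7.65, 7.04 and 6.43 in root controls and 9.51, 8.71 and 9.58 in root Cd, groups that did not overlap, and did not pass (difference 2.23, adjusted p = 0.209). CBF1, a cold-response factor, read 6.94, 8.05 and 8.58 in root controls and 4.62, 7.16 and 4.17 in root Cd (difference -2.54, adjusted p = 0.0884), and DREB1 differed by -1.07 there (adjusted p = 0.0699). The list's median was -0.42 in root and 0.35 in leaf. Of the Pto pathway list only PTI1, a kinase that Pto phosphorylates, was measured (0.26 in root and 0.15 in leaf, not called).

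Of 19 ethylene- or defence-responsive genes measured, 3 rose and 0 fell in root by limma (PR1b1, P4 and TSI-1). In leaf 0 were called. Over all probe sets 3.03% were called in root and 3.78% in leaf. At an unadjusted p below 0.05 there were 12 of the 19 in root and 0 in leaf, beside 17.4% and 19.2% of all probe sets. This list, like the others, was chosen with earlier results of these data known, so these shares are a description only. PR1b1, a pathogenesis-related protein, read 6.05, 5.54 and 5.17 in root controls and 8.72, 12.15 and 10.80 in root Cd (adjusted p = 0.00481 by limma). P4 read 3.38, 3.35 and 3.59 in root controls, above background on 2 of 3 arrays, and 6.89, 11.34 and 10.16 in root Cd. In both genes root Cd array 1 was the lowest of the root Cd arrays and still above every root control. Leaf controls read 11.47, 10.63 and 11.47 for PR1b1 and 9.47, 7.48 and 9.82 for P4, within the root Cd range of each gene. TSI-1 read 3.18, 2.15 and 3.26 in leaf controls, above background on 2 of 3 arrays and below its root Cd values. The list's median was 0.55 in root and 0.19 in leaf. The chitinase CHI3 read 7.82, 7.17 and 6.93 in root controls and 8.87, 10.37 and 10.65 in root Cd without passing (adjusted p = 0.113). Whether the organs' responses differed was tested for each gene, and 0 of the 19 passed by limma, beside 0.757% of all probe sets. At an unadjusted p below 0.05 there were 4 of the 19, beside 15.3% of all probe sets. The organ in which these genes were called was thus not the one in which ERF2 and PTI4 were called, and the difference between organs did not pass for these genes or for the factors.

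**Figure D5:**
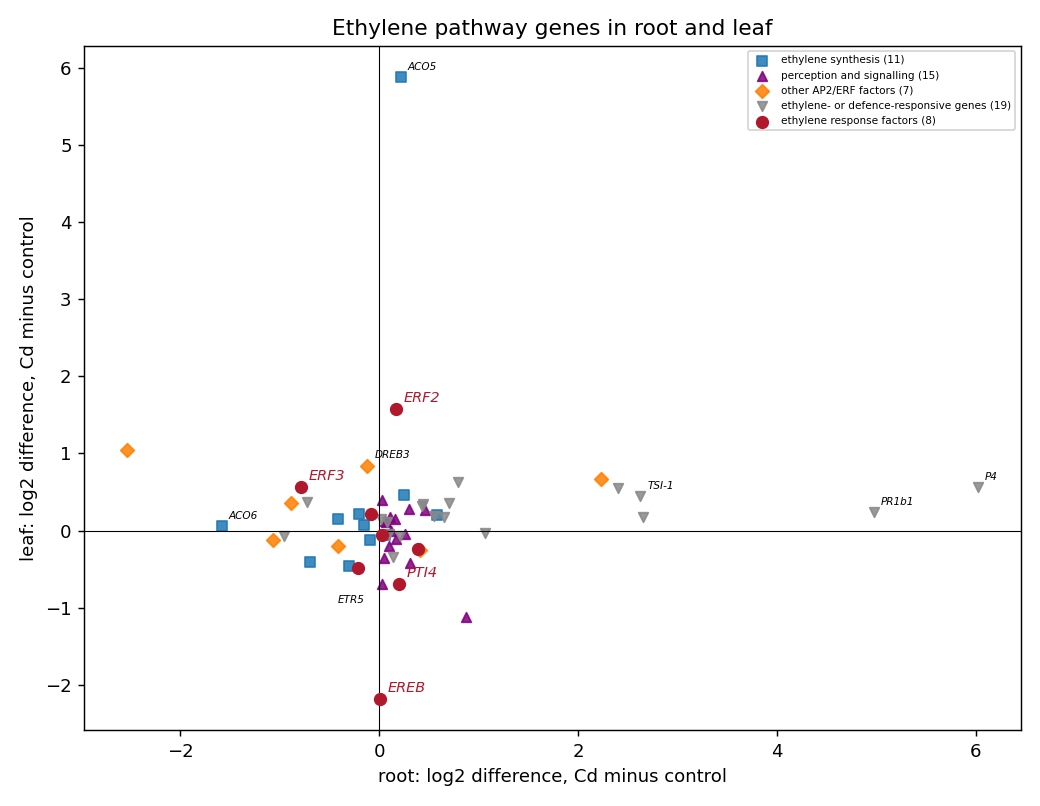
Log2 difference with Cd in root (x axis) and leaf (y axis) for the 8 ethylene response factors (red) and 4 lists of related genes, named where called in either organ, with EREB and ERF3 added. ERF2 and EREB lie along the leaf axis, while PR1b1, P4 and TSI-1 lie along the root axis. The point of ACO5 uses leaf controls at background.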

How the data were processed

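The authors deposited log2 expression per probe set; per the submitters' processing notes, MAS5 and RMA were used, with neither version nor role given. Values were used as deposited. Of 10209 probe sets, 171 control probe sets were left out. Groups came from the titles. One model of group means over all 12 arrays was used (limma 3.58.1, R 4.3.3, empirical Bayes, prior degrees of freedom 2.84, residual 8), with p-values two-sided and Benjamini-Hochberg adjusted over 10038 probe sets, threshold 0.05. The contrast between organs used median-centred values. The fit was tested on simulated independent normal values, for the root contrast only. Of 50 changes of 1 log2 unit 68% were called, and of 50 changes of 2 log2 units 92%, with 11 false calls. Changes smaller than 1 log2 unit were not simulated. Tables and plots used Python 3.11.15, pandas 2.3.3 and matplotlib 3.10.9.

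Gene names came from the array's 2007 annotation, which names 909 probe sets, and synonyms from a current gene table (assembly SLM_r2.1). For a gene with several probe sets, the one with the highest mean stood for it. Named genes were all members, genes of the lists called with Cd, the largest Cd differences up to 4 a list, and the 3 genes most like each called member. Members and lists were chosen with earlier results of these data known. The number of arrays limits the precision.

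Arrays of equal number were checked as pairs by correlating deviations from group means between control and Cd: 0.00, -0.26 and 0.06 in root, and 0.35, 0.42 and 0.12 in leaf. The labels used here state no pairing, and arrays of unequal number were not correlated for comparison. Whether the leaf arrays are paired is thus not settled. The main fit leaves pairing out, and the replicate block is the alternative that includes it. Alternatives were leaving out each array, a replicate block, each organ alone, array weights, quantile normalization, a trended robust prior, removal of dim probe sets, and median centring switched.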

Additional observations from a re-analysis of the deposited data

How the results depend on the processing

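Of 662 recomputed differences of the 9 probe sets, 596 kept their direction and their side of the threshold, 18 lost a call, 23 gained one and 25 changed sign. The cause of the changes was not tested. With arrays left out in turn, the number of all probe sets called ranged from 85 to 409 in root, 127 to 589 in leaf and 26 to 160 for the difference between responses, and the calls among the 9 probe sets from 1 to 3 in leaf and 0 to 2 for that difference. With each organ fitted alone the counts of all probe sets were 202 in root and 65 in leaf, with 0 of the 9 called in leaf. With array weights they were 3745 in root and 705 for the difference between responses, with 3 and 4 of the 9. On deposited values 7118 differed between organs, 6119 higher and 999 lower in root, against 2203 and 2140 after centring, and 8 of the 9 were called against 5. With the replicate block 376 were called in leaf (165 higher and 211 lower, against 224 and 155), 421 in root and 87 for the difference. ERF2 (1.58, adjusted p = 0.0213) and PTI4 (-0.70, adjusted p = 0.0476) kept their leaf call under the block, which changed no call with Cd among these genes.

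The sign changes concerned differences that did not pass, except for the ERF3 probe set below background, which turned to 0.25 between organs on deposited values. With arrays left out, root values ranged from -0.16 to 0.0092 for JERF1, from -0.285 to 0.24 for EREB and from -0.48 to 0.67 for ERF-H1. ERF-H1 ranged from -0.75 to 0.34 in leaf and from -0.42 to 0.78 for the difference, and JERF1 from -0.054 to 0.12 between organs. With array weights the signs turned for ERF4 (0.10), EREB (-0.10) and ERF-H1 (-0.24) in root and for JERF1 between organs (-0.0035). With quantile normalization they turned for EREB in root (-0.031) and for ERF-H1 in leaf (0.049) and for the difference (-0.0054). Signal near background limits EREB in roots.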
